A study of Homo sapiens with 8 samples.

Results

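The insulin and IGF receptor axis was followed through 10 genes, chosen by symbol from a deposited table of 60622 gene lines. They encode the receptors IGF1R, INSR and IGF2R, the receptor substrates IRS1 and IRS2, and the secreted IGF binding proteins IGFBP2, IGFBP3, IGFBP4, IGFBP5 and IGFBP6. Transcripts were counted in 8 poly(A) RNA-seq libraries of human prostate cancer cell lines in 4 groups of 2 libraries: LNCaP with miR-375 overexpressed, LNCaP control, PC3 with miR-375 overexpressed and PC3 control. LNCaP is an androgen-responsive line from a lymph node metastasis and PC3 a line from a bone metastasis; cultures were kept in RPMI medium with 10% serum for LNCaP and 20% for PC3, so that line and serum share cannot be told apart. The sources used here do not describe the means of overexpression, its duration or the treatment of the controls. Separate cultures are not stated for the libraries within a group, so a p-value reflects only how these libraries scatter, and that scatter may be technical.

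Insulin and the insulin-like growth factors act through a pair of related receptor tyrosine kinases, the insulin receptor (INSR) and the type 1 IGF receptor (IGF1R). On ligand binding these receptors phosphorylate the docking proteins IRS1 and IRS2, which recruit PI3-kinase and so lead to AKT and mTOR. IGF2R, also called the cation-independent mannose-6-phosphate receptor, has no kinase activity: it takes IGF2 to lysosomes for breakdown and sorts lysosomal enzymes. The binding proteins hold IGFs outside the cell, where they can keep ligand from the receptor or deliver it, until proteases release it. In prostate cancer this axis is studied as a source of growth and survival signals, and IGF1R is among the genes that earlier literature names as a target of miR-375, a microRNA abundant in pancreatic islets.

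A microRNA pairs with messenger RNAs mainly through its seed, bases 2 to 8, so its sequence is given with the matching stretches found in members of the axis. The mature sequence is from RefSeq (GRCh38.p14, chr2:219001648-219001669, minus strand), with the seed in capitals. The 3′ UTR stretches are from GENCODE release 29 transcripts on GRCh38, with the match in capitals; all those found in the 10 genes are shown, in genes that rose as well as in genes that fell.
hsa-miR-375-3p: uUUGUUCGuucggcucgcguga
IGF1R chr15:98959709-98959733, plus strand: taggagtaaGAACAAAgctgggata
IGF1R chr15:98960426-98960450, plus strand: ttgtctttgGAACAAActgcttctg
INSR chr19:7116639-7116663, minus strand: ctgtttgtgGAACAAAagttcgaaa
IGF2R chr6:160109441-160109465, plus strand: aaacttacaGAACAAAgaactattt
IRS1 chr2:226734058-226734082, minus strand: gaaatcaatGAACAAAgtcactccc
IRS1 chr2:226733497-226733521, minus strand: ttgcgaaaaGAACAAAtatgtttta
IRS1 chr2:226732340-226732364, minus strand: agttatggaGAACAAAaacagcttc
IRS2 chr13:109755230-109755254, minus strand: ggctgccctGAACAAAaaaaacaaa
IRS2 chr13:109752707-109752731, minus strand: ttatcttttGAACAAAtaaaatcag
IGFBP4 chr17:40457695-40457719, plus strand: aacaaaacaGAACAAAaccaaaaaa

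All of these are matches of GAACAAA, which pairs with bases 2 to 7 and has an A opposite base 1. The longer matches, CGAACAA (all 7 seed bases) and CGAACAAA (the same followed by A), were found in the 3′ UTR of 0 of the 10 genes. GAACAAA alone was found in 6 of them: in 2 places each in IGF1R and IRS2, in 3 places in IRS1, and once each in INSR, IGF2R and IGFBP4. The 3′ UTRs of IGFBP2, IGFBP3, IGFBP5 and IGFBP6 held none of the 3 forms. Only the sense strand was searched, in 1 transcript per gene, and a longer match was not counted again as a shorter one. Of 14959 tested genes with such a 3′ UTR, 0.435% held CGAACAAA, 0.615% held CGAACAA at best and 14.8% held GAACAAA at best. UTRs with GAACAAA were longer (median 2994 bases) than those with no match (median 954 bases). Those of IGF1R (7088 bases), IGF2R (6420 bases), IRS1 (4955 bases), INSR (4801 bases) and IRS2 (3606 bases) are longer still, and that of IGFBP4 is shorter (1148 bases). Of the UTRs with no match, that of IGFBP5 is long (4646 bases), and those of IGFBP3 (1252 bases), IGFBP2 (332 bases) and IGFBP6 (178 bases) are shorter. A match describes letters in a window and not a site in use.

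Library totals ran from 33973861 to 41890528 counts. Levels are given as CPM, the count share of a library in parts per 1e+06, with TMM scaling of library sizes, and as RPKM, the same divided by the gene's exon length in kilobases, where genes are compared with each other. A change is the log2 fold change of miR-375 over control ± SE, and the words rose and fell are used where the adjusted p of edgeR's quasi-likelihood test (Benjamini-Hochberg over 21066 tested genes) was under 0.05. All 10 genes passed the filter on low counts. The MIR375 gene had 0 counts in all 8 libraries, and since poly(A) libraries do not capture a mature microRNA, that row does not check the overexpression. Markers followed the lines: the 7 LNCaP markers summed to between 4362 and 5741 CPM in LNCaP libraries and between 90.3 and 106 CPM in PC3 libraries, and the 7 PC3 markers to between 2655 and 4571 CPM in PC3 libraries and between 43.2 and 58.8 CPM in LNCaP libraries. Within each line its own markers were lower with miR-375: 4362 and 4474 CPM in LNCaP with miR-375, against 5741 and 5719 CPM in LNCaP controls, and 2655 and 2670 CPM in PC3 with miR-375, against 4571 and 4550 CPM in PC3 controls. Whether this has a part in the results on the axis was not tested. In such bulk samples, fewer cells with a transcript and less of it per cell cannot be told apart.

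**Figure D1:**
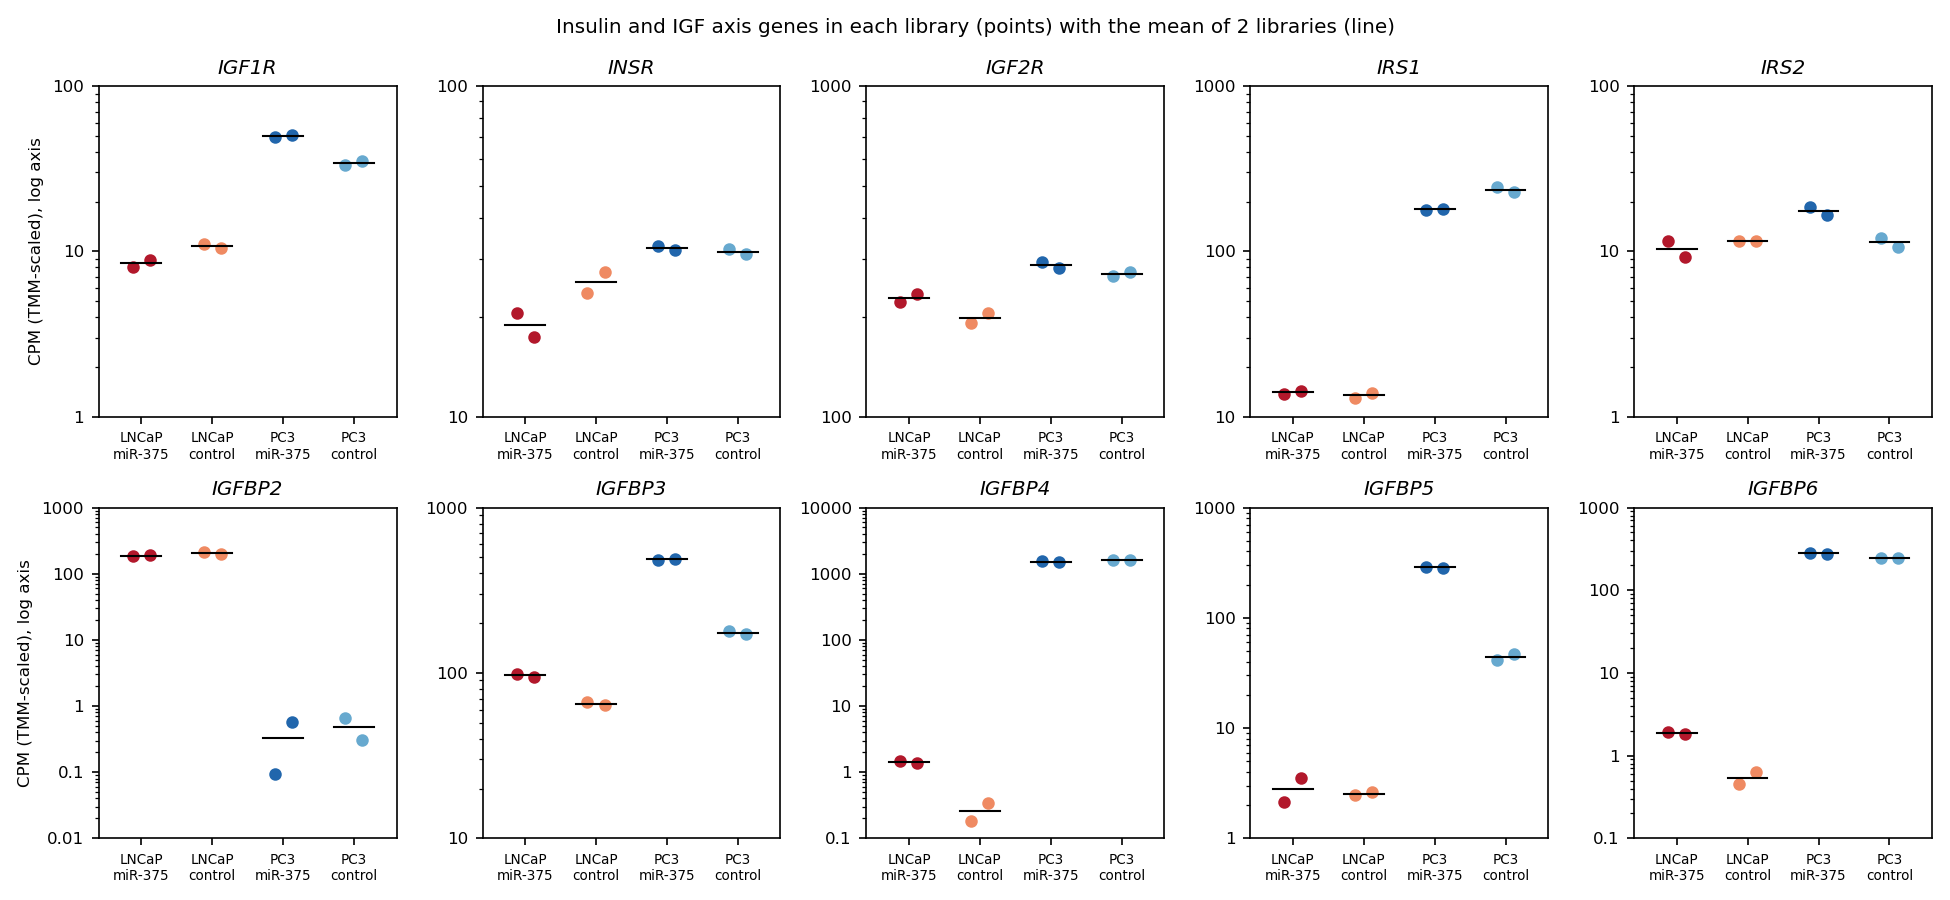
Level of each of the 10 genes in each library, in CPM on a log axis that differs between panels; points are libraries and lines the mean of 2 libraries. IGFBP4, IGFBP5 and IGFBP6 lie between 0.181 and 3.54 CPM in LNCaP and at or above 41.1 CPM in PC3, while IGFBP2 is the reverse.

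With miR-375, 6 of the 10 genes passed the test in LNCaP, 4 higher and 2 lower, and 6 in PC3, 5 higher and 1 lower. Over all tested genes 32.6% passed in LNCaP (13.9% higher and 18.7% lower) and 43.0% in PC3 (22.2% higher and 20.8% lower). The median size of the log2 change was 0.28 for the 10 genes and 0.30 for all tested genes in LNCaP, and 0.46 and 0.37 in PC3. Of the genes that passed, 3 did so in both lines: IGFBP3 and IGFBP6 rose in both, and IGF1R fell in LNCaP and rose in PC3. The change itself differed between the lines (the LNCaP effect minus the PC3 effect) for 8 of the 10 genes, 3 with a positive and 5 with a negative difference, against 26.5% of all tested genes (10.9% positive and 15.6% negative); the exceptions were IGF2R and IGFBP2.

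IGF1R (ENSG00000140443; chromosome 15, 98648539 to 98964530, plus strand, GRCh38), the receptor for both IGFs, moved in opposite directions in the 2 lines. It stood at 8.05 and 8.86 CPM in LNCaP with miR-375, against 11.1 and 10.5 CPM in LNCaP controls. In PC3 it stood at 49.4 and 50.3 CPM with miR-375, against 33.5 and 35.4 CPM in controls. The libraries of the 2 groups did not overlap in either line, but in LNCaP the gap was narrow. The change was −0.36 ± 0.10 in LNCaP (1.28-fold lower, adjusted p = 0.00705) and 0.53 ± 0.08 in PC3 (1.45-fold higher, adjusted p = 5.88e-07, edgeR). The difference between the lines was −0.89 ± 0.13 (adjusted p = 1.44e-06) and passed in every alternative tried, with values between −0.93 and −0.76. The fall in LNCaP was less settled: its call ended with total-count scaling (−0.23, adjusted p = 0.0831), without the first LNCaP control (−0.27, adjusted p = 0.120) and without the first LNCaP miR-375 library (−0.25, adjusted p = 0.155).

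INSR (ENSG00000171105; chromosome 19, 7112255 to 7294034, minus strand), the insulin receptor, fell in LNCaP. It had 20.5 and 17.4 CPM in LNCaP with miR-375, against 23.7 and 27.4 CPM in LNCaP controls, a change of −0.43 ± 0.09 (1.35-fold lower, adjusted p = 3.08e-04, edgeR). The lowest library was the second with miR-375 and the highest the second control. Without that miR-375 library the change was −0.26 (adjusted p = 0.0742) and without that control −0.27 (adjusted p = 0.0768). In PC3 its level was 32.8 and 31.8 CPM with miR-375 and 32.2 and 31.0 CPM in controls, with overlapping groups and a change of 0.03 ± 0.09 that did not pass (adjusted p = 0.822). The difference between the lines was −0.46 ± 0.13 (adjusted p = 0.00521), and it lost its call without either of those LNCaP libraries (adjusted p = 0.177 without the control and 0.171 without the miR-375 library).

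IGF2R (ENSG00000197081; chromosome 6, 159969099 to 160113507, plus strand), the lysosomal sorting and IGF2 clearance receptor, rose slightly in LNCaP. It had 223 and 235 CPM in LNCaP with miR-375, against 192 and 206 CPM in LNCaP controls (0.20 ± 0.04, adjusted p = 1.04e-04, edgeR). With total-count scaling the value was 0.32. In PC3 the level was 293 and 282 CPM with miR-375 and 267 and 274 CPM in controls. The PC3 groups did not overlap, yet the change of 0.09 ± 0.04 did not pass (adjusted p = 0.0661). It did pass with limma-voom (adjusted p = 0.0309), with total-count scaling (7.52e-04), with counts halved (0.0311) and with PC3 fitted alone (0.0435). The difference between the lines did not pass (0.11 ± 0.06, adjusted p = 0.146), and under the alternatives its adjusted p ran from 0.00249 to 0.403.

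The substrates IRS1 and IRS2, which link both kinase receptors to PI3-kinase, moved in opposite directions in PC3. IRS1 (ENSG00000169047; chromosome 2, 226731317 to 226799759, minus strand) had 178 and 181 CPM in PC3 with miR-375, against 244 and 229 CPM in PC3 controls. It fell by 0.40 on the log2 scale (SE 0.04, 1.32-fold lower, adjusted p = 1.13e-09, edgeR). IRS2 (ENSG00000185950; chromosome 13, 109752698 to 109786568, minus strand) had 18.5 and 16.6 CPM in PC3 with miR-375, against 12.1 and 10.6 CPM in PC3 controls. It rose by 0.62 ± 0.12 (1.54-fold higher, adjusted p = 5.50e-05). The groups of both genes were apart in PC3, and both calls held in every alternative. Per exon length, IRS1 over IRS2 was 7.86 and 8.93 in PC3 with miR-375, against 16.4 and 17.7 in PC3 controls, so IRS1 remained the higher of the 2 transcripts in each of these libraries.

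In LNCaP neither substrate passed. IRS1 had 13.8 and 14.4 CPM with miR-375 and 12.9 and 14.0 CPM in controls (0.07 ± 0.07, adjusted p = 0.566). With total-count scaling it passed at 0.19 (adjusted p = 0.0485). IRS2 had 11.6 and 9.19 CPM with miR-375 and 11.6 and 11.6 CPM in controls (−0.15 ± 0.13, adjusted p = 0.416). Its value rests on the second miR-375 library, without which it was 0.061 (adjusted p = 0.850). The change differed between the lines for IRS1 (0.46 ± 0.09, adjusted p = 6.18e-05) and for IRS2 (−0.78 ± 0.18, adjusted p = 8.78e-04). An antisense gene, AL162497.1, shares exon bases with IRS2 and had 0 counts in every library.

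Among the binding proteins, IGFBP5 and IGFBP3 rose in PC3, by more than any other change of the 10 genes in that line. IGFBP5 (ENSG00000115461; chromosome 2, 216672105 to 216695525, minus strand), a heparin-binding member found in bone and stroma, had 289 and 285 CPM in PC3 with miR-375, against 41.1 and 47.0 CPM in PC3 controls. Its change was 2.7 ± 0.07 (6.51-fold higher, adjusted p = 1.93e-23, edgeR), and 4.22% of tested genes changed by more in PC3 in either direction. IGFBP3 (ENSG00000146674; chromosome 7, 45912245 to 45921874, minus strand), the main IGF carrier of serum and a reported inhibitor of growth, had 482 and 491 CPM in PC3 with miR-375, against 178 and 172 CPM in PC3 controls. Its change was 1.47 ± 0.04 (2.77-fold higher, adjusted p = 3.46e-27). In both genes the replicates lay close together and far from the other group. The antisense gene AC007563.2, which shares exon bases with IGFBP5, had 0 counts in every library.

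Fibroblasts also make IGFBP5 and IGFBP3. The summed level of 5 fibroblast markers was higher in PC3 with miR-375 (413 and 392 CPM) than in PC3 controls (172 and 183 CPM). Its largest part was COL1A1, at 373 ± 15.7 CPM with miR-375 and 139 ± 4.03 CPM in controls (SD, n = 2). The defining fibroblast marker DCN was at 0.404 ± 0.0998 CPM with miR-375 and at 0 in controls, and PDGFRA at 23.2 ± 1.07 CPM with miR-375 and at 33.7 ± 4.47 CPM in controls. COL1A2 was at 0.618 ± 0.0688 CPM with miR-375 and 0.588 ± 0.196 CPM in controls, and COL3A1 at 5.10 ± 0.138 CPM with miR-375 and 4.08 ± 0.481 CPM in controls. The 4 endothelial markers summed to 205 and 206 CPM in PC3 with miR-375, against 367 and 369 CPM in PC3 controls. Most of this was KDR, at 173 ± 0.364 CPM with miR-375 and 322 ± 1.20 CPM in controls (−0.90 ± 0.04, adjusted p = 3.54e-19, edgeR). PECAM1 was at 32.3 ± 1.21 CPM with miR-375 and 45.1 ± 0.0711 CPM in controls (−0.48 ± 0.10, adjusted p = 1.2e-04, edgeR). CDH5 was at 0.155 ± 0.0172 CPM with miR-375 and 0.128 ± 0.0395 CPM in controls. VWF was at 0.143 ± 0.135 CPM with miR-375 and 0.101 ± 0.0692 CPM in controls. A part of these markers in the IGFBP5 and IGFBP3 rises was not tested.

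IGFBP6 and IGFBP4 were the other 2 binding proteins of high level in PC3, and they changed little there. IGFBP6 (ENSG00000167779; chromosome 12, 53097436 to 53102345, plus strand), which binds IGF2 more tightly than IGF1, had 283 and 277 CPM in PC3 with miR-375, against 248 and 248 CPM in PC3 controls (0.17 ± 0.04, 1.13-fold higher, adjusted p = 4.61e-04, edgeR). IGFBP4 (ENSG00000141753; chromosome 17, 40443461 to 40457731, plus strand), generally an inhibitor of IGF action that the protease PAPPA cleaves, had 1535 and 1518 CPM with miR-375 and 1589 and 1593 CPM in controls. Its change of −0.06 ± 0.03 did not pass (adjusted p = 0.126), and its sign depends on scaling: it was 0.016 with total counts. It passed as lower with DESeq2 (−0.07, adjusted p = 0.0296), with limma-voom (−0.06, 2.31e-04), without a filter on low counts (−0.09, 0.0399) and with PC3 fitted alone (−0.08, 1.68e-04). It also passed when any LNCaP library was left out, with adjusted p from 0.0145 to 0.0190.

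In LNCaP the largest relative rises were of IGFBP4 and IGFBP6, both at trace levels there. IGFBP4 had 54 and 50 counts (1.46 and 1.38 CPM) in LNCaP with miR-375, against 6 and 12 counts (0.181 and 0.344 CPM) in LNCaP controls. Its change was 2.41 ± 0.26 (5.33-fold higher, adjusted p = 1.14e-09, edgeR), and it ranged from 2.09 to 3.00 over the alternatives. It was 3.00 without the second LNCaP control. IGFBP6 had 71 and 66 counts (1.92 and 1.83 CPM) with miR-375, against 15 and 22 counts (0.453 and 0.630 CPM) in LNCaP controls, a change of 1.78 ± 0.22 (3.43-fold higher, adjusted p = 3.00e-08). Both genes are far higher in PC3, and the level of other PC3 transcripts in the LNCaP libraries was examined after these values were seen. Of 111 genes with at least 100 CPM in PC3 controls and a mean under 2 CPM in LNCaP, IGFBP4 and IGFBP6 among them, 22 rose, 24 fell and 65 did not pass in LNCaP, where 13.9% of all tested genes rose and 18.7% fell. Their summed level was 76.9 and 72.8 CPM in LNCaP with miR-375 and 86.5 and 70.9 CPM in LNCaP controls.

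IGFBP3 rose in LNCaP as well, at 98.3 and 95.0 CPM with miR-375, against 66.9 and 63.6 CPM in LNCaP controls (0.57 ± 0.04, 1.48-fold higher, adjusted p = 3.25e-13, edgeR). The rise was larger in PC3: the LNCaP effect minus the PC3 effect was −0.91 ± 0.06 (adjusted p = 6.04e-15). IGFBP5 had 2.11 and 3.54 CPM in LNCaP with miR-375 and 2.45 and 2.64 CPM in LNCaP controls, with the controls lying between the 2 miR-375 libraries (0.15 ± 0.19, adjusted p = 0.616). It passed at 0.52 without the first miR-375 library (adjusted p = 0.0326) and was −0.21 without the second (adjusted p = 0.532). The IGFBP5 change differed between the lines by −2.55 ± 0.21 (adjusted p = 9.85e-11). IGFBP4 and IGFBP6 differed the other way, by 2.47 ± 0.26 (adjusted p = 1.48e-09) and 1.61 ± 0.23 (adjusted p = 6.46e-07).

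IGFBP2 (ENSG00000115457; chromosome 2, 216632828 to 216664436, plus strand), a binding protein often high in prostate cancer, was a LNCaP transcript. It had 185 and 188 CPM in LNCaP with miR-375 and 214 and 197 CPM in LNCaP controls. The groups did not overlap, but the change of −0.14 ± 0.07 did not pass (adjusted p = 0.148). It passed as lower with limma-voom (adjusted p = 0.0182), with counts halved (0.00490), with LNCaP fitted alone (0.00872) and without either PC3 miR-375 library (0.0359 and 0.0360). With total-count scaling the change was −0.015. In PC3 it had 4 and 24 counts with miR-375 and 26 and 12 counts in controls, a change of −0.53 ± 0.51 that did not pass (adjusted p = 0.443). It passed at −2.30 without the second PC3 miR-375 library (adjusted p = 0.00499), which leaves the library with 4 counts, and it was 0.23 without the first (adjusted p = 0.712). The difference between the lines did not pass (0.40 ± 0.51, adjusted p = 0.656) but did without that second library (2.17, adjusted p = 0.0147).

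**Figure D2:**
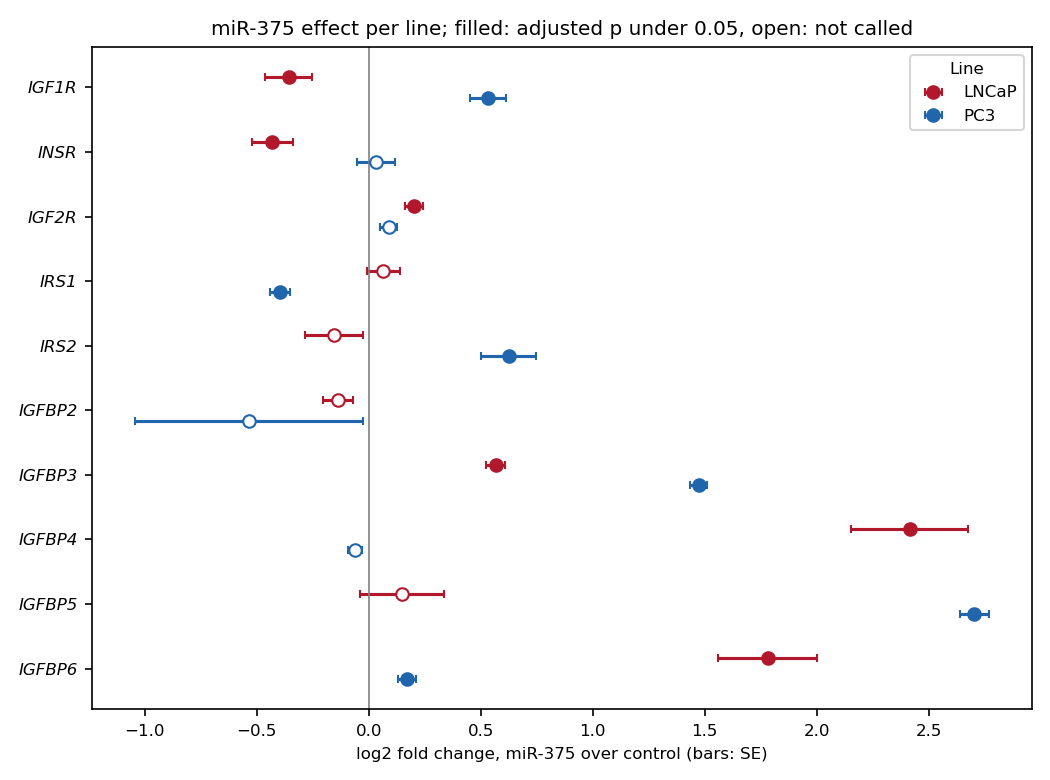
Log2 fold change of miR-375 over control for each gene in LNCaP and PC3, with SE; filled points had an adjusted p under 0.05. IGF1R lies below 0 in LNCaP and above it in PC3, IGFBP4 and IGFBP6 are highest in LNCaP, and IGFBP5 and IGFBP3 are highest in PC3.

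Per exon length, the highest transcripts of the axis were binding proteins in both lines: IGFBP2 and IGFBP3 in LNCaP, and IGFBP4, IGFBP6 and IGFBP3 in PC3. In LNCaP with miR-375 the order began with IGFBP2 (38.7 and 39.5 RPKM), IGFBP3 (21.5 and 20.8 RPKM) and IGF2R (12.5 and 13.2 RPKM). The other 7 lay between 0.328 and 1.97 RPKM in that group. Neighbours there whose libraries overlapped were IRS1 with IGFBP6, IGFBP6 with IRS2, and IGFBP4 with IGF1R. LNCaP controls had the same first 3, with IGFBP2 at 44.8 and 41.3 RPKM, IGFBP3 at 14.6 and 13.9 RPKM and IGF2R at 10.7 and 11.6 RPKM. IGFBP4 was last in the controls, at 0.0824 and 0.156 RPKM, below IGFBP6 and IGFBP5, whose libraries overlapped.

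In PC3 with miR-375 the order was IGFBP4 (698 and 690 RPKM), IGFBP6 (210 and 206 RPKM), IGFBP3 (105 and 107 RPKM), IGFBP5 (44.8 and 44.2 RPKM), IRS1, IGF2R, IGF1R, INSR, IRS2 and IGFBP2. No neighbours overlapped. In PC3 controls IGFBP4 (722 and 724 RPKM), IGFBP6 (185 and 184 RPKM) and IGFBP3 (39.0 and 37.7 RPKM) came first, and IGFBP5 stood sixth, behind IRS1 and IGF2R, at 6.38 and 7.29 RPKM. The 2 kinase receptors changed places per exon length: IGF1R over INSR was 1.13 and 1.18 in PC3 with miR-375, against 0.780 and 0.856 in PC3 controls. That order depends on the lengths used, all annotated exons joined (13941 bases for IGF1R and 10451 for INSR). By CPM, IGF1R was already the higher in PC3 controls (33.5 and 35.4 CPM, against 32.2 and 31.0 CPM for INSR). In LNCaP the ratio per exon length was 0.294 and 0.382 with miR-375 and 0.352 and 0.289 in controls, with overlapping groups.

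Summed over the 5 binding proteins, the level was 1058 and 1047 RPKM in PC3 with miR-375, against 952 and 954 RPKM in PC3 controls, and 62.7 and 62.9 RPKM in LNCaP with miR-375, against 60.3 and 56.2 RPKM in LNCaP controls. The make-up shifted more than the sum. IGFBP4 held 65.9% and 65.9% of the sum in PC3 with miR-375, against 75.8% and 75.9% in PC3 controls. IGFBP3 held 9.97% and 10.2% there, against 4.10% and 3.95% in PC3 controls, and IGFBP5 4.23% and 4.22%, against 0.670% and 0.765%. In LNCaP, IGFBP2 held 61.8% and 62.9% of the sum with miR-375, against 74.4% and 73.4% in controls. IGFBP3 held 34.3% and 33.1% with miR-375, against 24.3% and 24.8% in LNCaP controls.

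**Figure D3:**
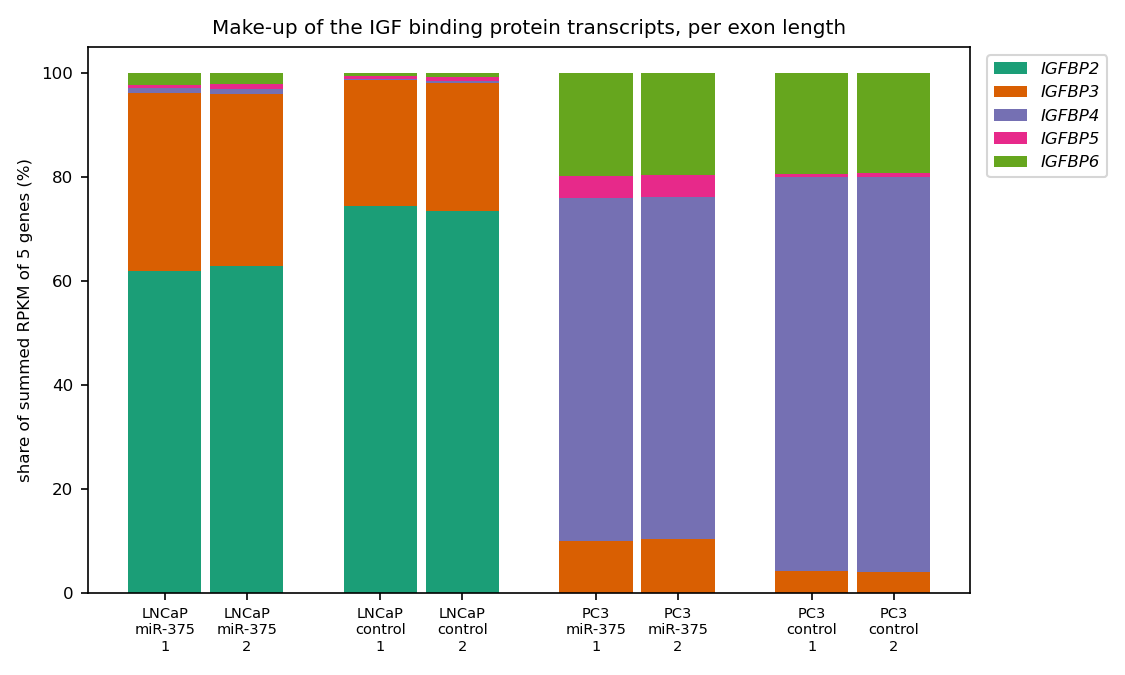
Share of each binding protein in the summed RPKM of the 5, one bar per library. IGFBP2 and IGFBP3 make up nearly the whole bar in LNCaP and IGFBP4 and IGFBP6 most of it in PC3; the IGFBP3 share is larger with miR-375 in both lines.

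Between the controls of the 2 lines, 9 of the 10 genes differed, against 80.4% of all tested genes (41.2% higher and 39.2% lower in LNCaP controls). The median size of the difference was 2.89 on the log2 scale for the 10 and 1.37 for all. IGFBP2 was higher in LNCaP controls than in PC3 controls (8.72 ± 0.15, adjusted p = 4.67e-21, edgeR). The other 8 were lower in LNCaP controls: IGFBP4 by the most (−12.54 ± 0.08, adjusted p = 4.91e-48), then IGFBP6 (−8.83 ± 0.09), IRS1 (−4.13 ± 0.06), IGFBP5 (−4.11 ± 0.11), IGF1R (−1.67 ± 0.09), IGFBP3 (−1.43 ± 0.04), IGF2R (−0.44 ± 0.04) and INSR (−0.31 ± 0.09). IGFBP4 and IGFBP6 rest on trace counts in LNCaP controls and IGFBP2 in PC3 controls, so their SEs understate the uncertainty. With single libraries left out, IGFBP4 ranged from −13.11 to −12.20, IGFBP6 from −9.12 to −8.65 and IGFBP2 from 8.30 to 9.35. The IGFBP2 difference was 9.35 without the first PC3 control. IRS2 did not differ beyond its spread, at 11.6 and 11.6 CPM in LNCaP controls and 12.1 and 10.6 CPM in PC3 controls (0.03 ± 0.13, adjusted p = 0.854), and its sign changed with the scaling. These controls also enter the miR-375 comparisons above, so the baseline and the responses are not independent of each other.

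Ligand transcripts had few counts. Overlap with other annotated genes was checked for members of the axis only. Whether reads of the ligand genes were lost to an overlapping gene was not tested, so a low count need not mean a scarce transcript. INS, the insulin gene, had 1 count in 1 LNCaP control and 0 in the other 7 libraries and was not tested. IGF2 had 0 counts in all 4 LNCaP libraries. In PC3 it had 46 and 59 counts (1.10 and 1.40 CPM) with miR-375, against 9 and 5 counts (0.225 and 0.130 CPM) in controls, a rise of 2.79 ± 0.70 (adjusted p = 0.00134, edgeR) that passed in every alternative. IGF1 had 22 and 23 counts in LNCaP with miR-375 and 42 and 44 counts in LNCaP controls. That change of −1.03 ± 0.61 did not pass (adjusted p = 0.215), though it did with LNCaP fitted alone (adjusted p = 0.0356). In PC3, IGF1 had 2 and 0 counts with miR-375 and 0 in both controls. The further binding proteins IGFBP1, IGFBP7, IGFBPL1 and IGFALS, a partner of IGFBP3 in serum, stayed at or under 1.36 CPM in every library and none passed in either line.

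Of 68 other genes of the pathway, 65 were tested. In LNCaP 16 were higher, 12 lower and 37 did not pass, with a median change of −0.01 against 0.00 over all tested genes. With total-count scaling 28 were higher and 8 lower, since that scaling moves the median of all genes by 0.12. In PC3 22 were higher, 19 lower and 24 did not pass, with a median of −0.01 against 0.02. These counts are set against 13.9% higher and 18.7% lower of all tested genes in LNCaP, and 22.2% higher and 20.8% lower in PC3. By subgroup, 1 of 6 receptor adaptors was higher and 0 lower in LNCaP, and 4 were higher (SHC1, SH2B1, SH2B2 and CRK) and 2 lower (GRB2 and GAB1) in PC3. Of 7 receptor-proximal inhibitors, 1 was higher and 2 lower in LNCaP, and 2 were higher and 4 lower in PC3. Of 16 PI3K, AKT and FOXO genes, 8 were higher and 2 lower in LNCaP, and 6 were higher and 4 lower in PC3. Of 8 genes around mTOR, 0 were higher and 4 lower in LNCaP, and 1 was higher and 4 lower in PC3. Of 11 RAS and ERK genes, 4 were higher and 2 lower in LNCaP, and 3 were higher and 3 lower in PC3. Of 6 genes for binding protein proteases, their inhibitors and ligand clearance, 1 was higher and 1 lower in LNCaP, and 3 were higher and 1 lower in PC3. Of 3 IGF2 mRNA binding proteins, 0 were higher and 1 lower in LNCaP, and 1 was higher and 1 lower in PC3. Of the 2 further receptors, 1 was higher in each line. The subgroups are small and no test of a subgroup was made.

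The largest changes named by rule were these. In LNCaP, STC1, which encodes a stanniocalcin, a family of PAPPA inhibitors, rose by 0.87 ± 0.09, the insulin receptor adaptor SH2B1 by 0.68 ± 0.08, and SOS2, a RAS exchange factor, by 0.50 ± 0.07. The phosphatase gene PTPN1, which switches off the insulin receptor, fell by 0.82 (SE 0.06), the translation repressor gene EIF4EBP1 by 0.67 (SE 0.05) and MTOR by 0.62 (SE 0.05). In PC3, the stanniocalcin gene STC2 rose by 1.24 ± 0.04, the transcription factor gene FOXO4 by 0.93 ± 0.11 and IGF2BP3, an RNA-binding protein named for IGF2 mRNA, by 0.75 ± 0.07. MAP2K1, a kinase of the ERK cascade, fell by 1.02 (SE 0.05), ENPP1, an inhibitor of the insulin receptor, by 0.93 (SE 0.07) and SOCS1, a feedback inhibitor, by 0.91 (SE 0.20). All of these passed in every alternative run for them. PTPN1 also fell in PC3 (−0.65 ± 0.05, adjusted p = 2.67e-13), as did EIF4EBP1 (−0.26 ± 0.05) and MTOR (−0.31 ± 0.05), while STC2 fell in LNCaP (−0.32 ± 0.04, adjusted p = 2.13e-07).

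**Figure D4:**
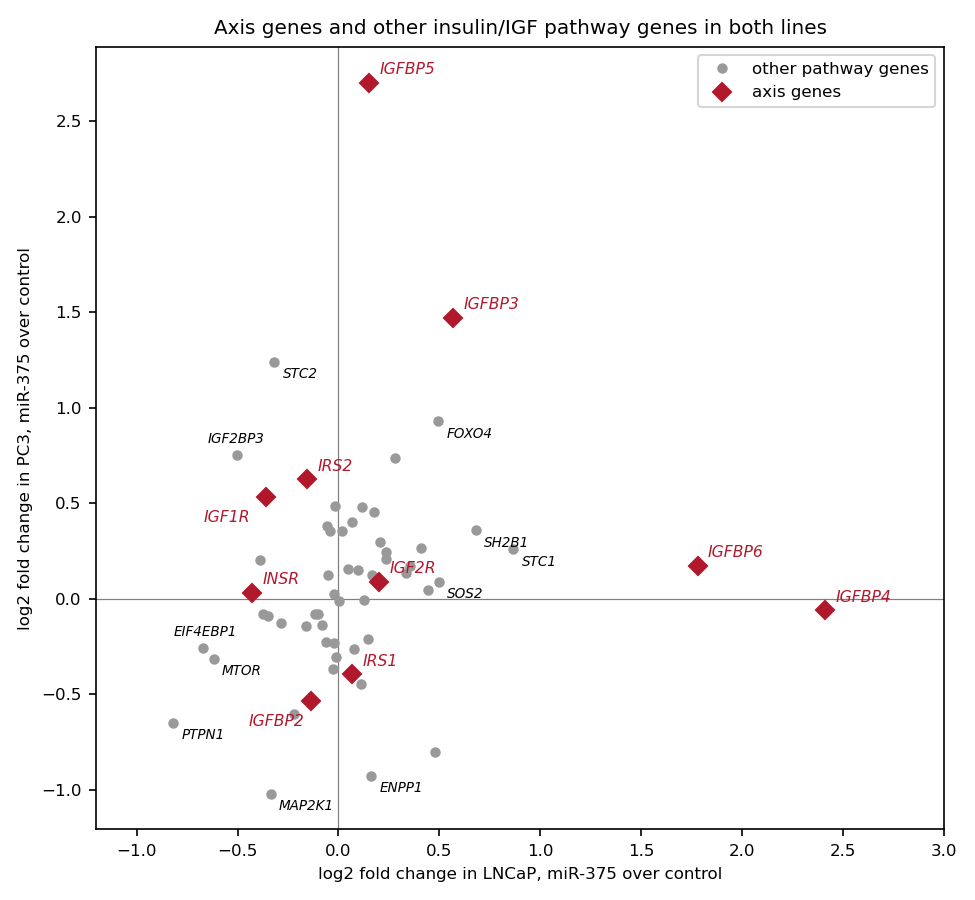
Log2 fold change with miR-375 in LNCaP (horizontal) and PC3 (vertical) for the 10 axis genes (diamonds) and 51 other pathway genes with a mean of at least 1 CPM in both lines (circles). IGFBP5, IGFBP3, IGFBP4 and IGFBP6 are the 4 labelled diamonds farthest from 0 in at least 1 line.

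Genes whose pattern over the 8 libraries was nearest to that of each member were found by the root mean square difference of log2(CPM + 1), each gene centred on its own mean. The nearest 2 were CFD (0.0895) and MT-TP (0.0941) for IGF1R, SPRY1 (0.0719) and SMCHD1 (0.0726) for INSR, and RGP1 (0.0175) and TNKS1BP1 (0.0451) for IGF2R. For the substrates they were ANXA10 (0.0580) and MSN (0.0634) for IRS1, and MFAP4 (0.0737) and DNAJC1 (0.0922) for IRS2. For the binding proteins they were GLYATL1 (0.176) and PLPP2 (0.195) for IGFBP2, CADM2 (0.105) and C1R (0.134) for IGFBP3, LINC02582 (0.498) and IL1B (0.516) for IGFBP4, ST6GAL2 (0.205) and LGALS3BP (0.349) for IGFBP5, and TNC (0.174) and GNG2 (0.242) for IGFBP6. Each distance reads against the member's own root mean square about its mean, which was 0.210 for IGF2R, 0.289 for IRS2, 0.309 for INSR, 1.03 for IGF1R, 1.09 for IGFBP3, 1.91 for IRS1, 2.66 for IGFBP5, 3.50 for IGFBP6, 3.58 for IGFBP2 and 4.91 for IGFBP4. For IGF2R, IRS2 and INSR, which vary least, a small distance means little. For the other members the distance also takes in the difference between the lines, which 80.4% of all tested genes showed between the controls. A near pattern need not be a shared response to miR-375.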

How the data were processed

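The authors deposited whole-number counts per gene for all libraries in 1 table. The submitters' processing notes name STAR 2.7.1a, fastp, DESeq2, featureCounts and hg38; the sources used here state neither the role of each, nor the annotation, nor how strand was handled in counting, so overlapping and antisense genes are uncertain. Of 60625 lines, 3 were broken and left out. Between 68.1% and 70.3% of counts from 1 to 20 were even, so mates may have been counted singly; counts halved were therefore an alternative. No column belonged to another series. Depth limits IGFBP2 in PC3 and IGFBP4 and IGFBP6 in LNCaP to counts under 100, and count-based limits cover counting error only.

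All 4 groups were fitted in 1 model with TMM scaling (factors from 0.957 to 1.06), filterByExpr by group, and edgeR 4.0.16 (glmQLFit, robust; glmQLFTest) in R 4.3.3, with 4 residual degrees of freedom; limma 3.58.1 and DESeq2 1.42.0 served as alternatives. The fit draws each gene's spread towards that of all tested genes, so a p-value does not rest on the 4 residual degrees of freedom alone. SE is the size of the log2 change divided by the square root of F, and can be too small for large changes resting on trace counts. The fit was also run on simulated data, with changes placed only in genes well above trace level. All simulated libraries shared the mean of 1 line's controls. That run therefore does not bear on trace-level genes or on differences between the lines, and no result here rests on it. Exon lengths, coordinates and 3′ UTRs (the APPRIS principal transcript, then the longest UTR) are from GENCODE release 29, GRCh38. On the counts as deposited, replicates of a group differed by more than independent counts would (chi-square over its degrees of freedom between 3.52 and 3.74). Mates counted singly would raise that value by themselves, and it was not computed on halved counts. No library was treated as a duplicate. The alternatives were other tools, scalings and filters, each line alone, each library left out, and a replicate block. Members, gene lists and tests were chosen with earlier results of these data known. Named pathway genes were, per line, the 3 largest rises and 3 largest falls among genes that passed with a mean of at least 5 CPM, plus ligands and further binding proteins; other adaptors, single marker genes and the 111 PC3-high genes were named after their values were seen. Endothelial markers summed to at most 6.84 CPM in LNCaP libraries, and 5 leukocyte markers to at most 2.71 CPM in any library.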

Additional observations from a re-analysis of the deposited data

Results flagged for a closer look

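The miR-375 effect differed between LNCaP and PC3 by a test of the difference itself (LNCaP effect minus PC3 effect, edgeR interaction) for 8 of the 10 genes. The log2 differences were −0.89 for IGF1R, −0.46 for INSR, 0.46 for IRS1, −0.78 for IRS2, −0.91 for IGFBP3, 2.47 for IGFBP4, −2.55 for IGFBP5 and 1.61 for IGFBP6. Of these, the value for INSR lost its call without the second LNCaP control (−0.28) or the second LNCaP miR-375 library (−0.26), and the IGFBP4 value was 3.08 without the second LNCaP control. Line and serum share cannot be told apart in any of them.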

How the results depend on the processing

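Each of the 10 genes was refitted in 4 comparisons under up to 17 alternatives. Of 29 calls, 26 kept direction and call in all of them; the exceptions were IGF1R and INSR in LNCaP and the INSR difference between lines, described above. Of 620 refitted values 571 kept direction and side of the threshold, 27 gained a call, 7 lost one and 15 changed sign. The sign changes were all of values that had not passed: IGFBP4 in PC3 with total counts (0.016), and IRS2 between the controls with DESeq2 (−0.0076), median-of-ratios scaling (−0.0079) and no filter (−0.016). With single libraries left out the ranges were −0.066 to 0.127 for IRS2 between controls, −0.30 to 0.061 for IRS2 in LNCaP, −0.21 to 0.52 for IGFBP5 in LNCaP, −2.30 to 0.23 for IGFBP2 in PC3 and −0.37 to 2.17 for the IGFBP2 difference. Counts of genes that passed in either direction stayed within 1.5 times the main counts, but their split by direction did not. In LNCaP, total-count scaling gave 5 higher and 1 lower of the 10 genes (main 4 and 2) and 28 higher and 8 lower pathway genes (main 16 and 12), and no filter gave 22 higher and 9 lower pathway genes.

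The replicate numbers share no stated source, and same-numbered libraries did not deviate together (correlation from −0.03 to 0.01). With a replicate block 6 of the 10 genes passed in LNCaP, 6 in PC3 and 8 for the difference, as without it. Trace counts limit IGFBP2 in PC3 and IGFBP4 and IGFBP6 in LNCaP. IGFBP5 counts in LNCaP were low as well, at 78 and 128 with miR-375 and 81 and 92 in controls.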
